A study of Sus scrofa with 22 samples.

Results

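The comparison of pregnant with cyclic endometrial stroma (S) rests on 6 of the 22 LCM libraries of the series, all 6 that carry the label of stromal cells. LCM, laser capture microdissection, cuts chosen cells out of a tissue section under the microscope. The 3 pregnant libraries come from gilts 01, 05 and 14 and the 3 cyclic (control) libraries from gilts 02, 04 and 13, so that each library is a different animal and no gilt occurs in both groups. All were prepuberal German Landrace and Piétrain crossbreeds that had received PMSG and hCG to set the time of ovulation. Pregnant gilts were inseminated with semen, and cyclic gilts with the supernatant of centrifuged semen. Endometrium was collected on Day 12 and stained with Cresyl violet, and the remaining 16 libraries are luminal epithelium (LE, 8) and glandular epithelium (GE, 8) cut from the same and 2 further gilts. The areas taken as S hold fibroblasts together with other cells, mainly immune cells, and each library was made from the RNA of very few cells. Values are listed below in the order of gilts 02, 04 and 13 for cyclic and 01, 05 and 14 for pregnant S.

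Endometrial stroma is the connective tissue below the uterine epithelium. Its fibroblasts lay down collagens and other matrix proteins and secrete growth factors that act on the epithelium, and blood vessels, lymph vessels and leukocytes run through it. Around Day 12 pig conceptuses elongate into filaments and secrete estrogen, the signal that keeps the corpora lutea alive, together with interleukin 1 beta, and interferons follow. The endometrium then prepares for attachment, with changes in prostaglandin handling, adhesion molecules and the supply of nutrients to the lumen.

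The levels of cell type markers went against the label. Fibroblasts are marked by collagens, VIM, DCN and PDGF receptors, and epithelium by keratins, EPCAM, CDH1 and claudins. Summed over 14 epithelial markers on a scale common to all cell types, cyclic S had between 3860 and 4321 CPM (read counts scaled by library size and TMM factor), against 3843 to 4608 CPM in cyclic LE and 1157 to 3297 CPM in cyclic GE. Relative to the mean of LE and GE of the same gilt, the S libraries of the cyclic gilts 02, 04 and 13 had 150%, 114% and 117% of the epithelial marker level, and those of the pregnant gilts 01, 05 and 14 had 46.1%, 111% and 68.9%. The summed level of 10 fibroblast markers was 16.4%, 50.3% and 89.3% of that in the epithelium of the same gilt in cyclic S and 235%, 69.9% and 110% in pregnant S. Thus 4 of the 6 libraries had more epithelial and less fibroblast marker RNA than the mean of LE and GE of the same gilt. Against LE and GE each, both orders held for gilts 04 and 05. GE of gilt 02 itself had 1157 CPM of epithelial and 46780 CPM of fibroblast markers. LE of that gilt had 4608 CPM of epithelial markers, against 4321 CPM in S. In gilt 13, fibroblast markers were at 8652 CPM in S, 4431 CPM in GE and 14940 CPM in LE. All 14 epithelial markers were listed for S, with a lowest value of 8.88 CPM in any library. CDH1, which joins epithelial cells, had 1194, 749.8 and 1011 CPM in the cyclic libraries and 409, 2153 and 845 CPM in the pregnant libraries. HAND2 and TCF21, factors of fibroblast identity, and all 6 neutrophil markers were not listed. The libraries are called S below because of their label, and none of the differences can be assigned to fibroblasts from these data.

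**Figure D1:**
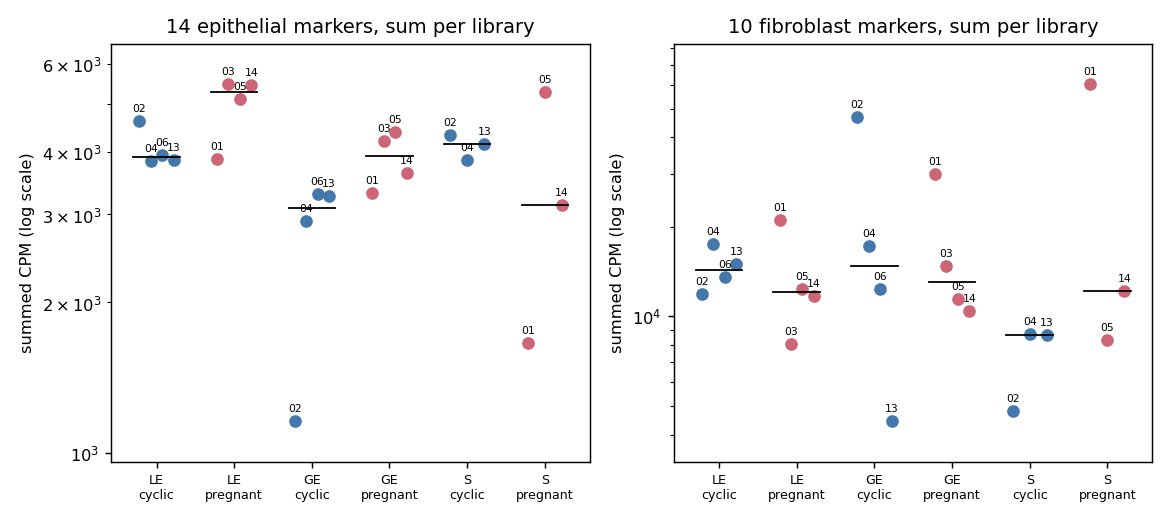
Summed CPM of 14 epithelial (left) and 10 fibroblast markers (right) in the 22 libraries on a log scale, with 1 point per library labelled with its gilt and a line at the group median. Cyclic S lies at the level of LE in the epithelial markers and pregnant S of gilt 01 lies apart from the other S libraries in both panels, lowest in epithelial and highest in fibroblast markers.

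Pregnant S of gilt 01 stood apart in other respects as well. It had the smallest library, 1344151 counts against 2484870 to 3278733 in the other 5, and 13.6% of its counts fell on 10 genes against 3.96% to 6.89%. A level of 3 counts corresponds to 2.43 CPM in that library and to 0.877 to 1.18 CPM in the others, so that differences near this level were not detectable. Across genes, log2 CPM correlated with 0.883 to 0.927 among cyclic, 0.782 to 0.845 among pregnant and 0.741 to 0.871 between cyclic and pregnant libraries (15 pairs of libraries, which share genes).

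In pregnant S the genes with the largest increases encoded calgranulins, a serpin, a metalloprotease and markers of lymphatic vessels, while the decreases included genes of receptors, adhesion molecules, and enzymes of retinoic acid, prostaglandin and amino acid metabolism. Of 11532 genes tested, 170 (1.47%) were called differentially expressed (DE) at the unadjusted p value of 0.0021 that the study applied to S, 49 (0.425%) with higher and 121 (1.05%) with lower expression in pregnant gilts. These percentages are the background against which the gene groups below are to be read. At a false discovery rate (FDR) below 1% the edgeR quasi-likelihood test called 0 genes, whereas 1438 (12.5%) had an unadjusted p value below 0.05. The exact test, the likelihood ratio test and the DESeq2 Wald test called 239, 257 and 296 genes at that FDR. At an FDR below 5% the quasi-likelihood test left 29 genes, of which 3 were higher and 26 lower in pregnant S, and all 29 stayed below a p value of 0.0021 whichever gilt was left out. That held for 48 of the 170 called genes. The number called ranged from 65 without cyclic gilt 13 and 74 without cyclic gilt 02 to 221 without pregnant gilt 05. Without gilt 14, 101 of 187 called genes (54%) were higher, compared with 28.8% with all libraries. In all 170 the levels of pregnant and cyclic libraries did not overlap, which was the case for 2025 (17.6%) of the genes tested. Lower expression in such samples can stand for fewer cells of a type or for less RNA per cell, and these cannot be told apart.

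Several receptors and signalling molecules were called lower in pregnant S. GPR83 (gene ID 100513220, chromosome 9, 26549230 to 26560473, Sscrofa11.1 as for all positions), a G protein-coupled receptor, had 32.7, 21.3 and 41.7 CPM in the cyclic libraries and 0, 0 and 0.306 CPM in the pregnant libraries. Pregnant S thus had 1 count in 3 libraries against 270 in cyclic S, a ratio of 232 (95% counting interval 41.4 to 9217, exact binomial, which covers counting error only; quasi-likelihood FDR 0.0296). LGR5 (chromosome 5, 35463257 to 35595234), the R-spondin receptor that strengthens WNT signalling, had 35, 7.3 and 49.1 CPM in the cyclic libraries and 0, 0.335 and 0 CPM in the pregnant libraries. This is a ratio of 214 (95% counting interval 38.0 to 8469; quasi-likelihood FDR 0.0773), and the call was lost only without pregnant gilt 05. EGF (gene ID 397083, chromosome 8, 112235607 to 112330062), a ligand of the EGF receptor, was listed with 218, 139 and 148 CPM in the cyclic libraries and 12.9, 17.4 and 10.4 CPM in the pregnant libraries (log2 FC −3.62, SE 0.33, quasi-likelihood FDR 0.0296). The 3 pregnant libraries lay within 10.4 to 17.4 CPM, far below the lowest cyclic library. RGS4, which ends signalling by G proteins, had 171, 148 and 79.4 CPM in the cyclic libraries and 11.3, 4.35 and 3.06 CPM in the pregnant libraries (log2 FC −4.53, SE 0.57, quasi-likelihood FDR 0.0413). WLS, which carries WNT proteins to the cell surface, had 984, 687 and 767 CPM in the cyclic libraries and 254, 357 and 224 CPM in the pregnant libraries (log2 FC −1.55, SE 0.31, quasi-likelihood FDR 0.124), and its call was lost without gilt 02, 04, 13, 01 or 14 (log2 FC −1.65 to −1.39).

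Among enzymes that control retinoic acid, the hormone-like derivative of vitamin A, CYP26A1 and RDH10 were called lower. CYP26A1 (chromosome 14, 104561394 to 104567099), which breaks down retinoic acid, had 366, 90.6 and 122 CPM in the cyclic libraries and 0.809, 0 and 3.06 CPM in the pregnant libraries (log2 FC −7.04, SE 1.02, quasi-likelihood FDR 0.0639). One of the pregnant libraries, that of gilt 05, had no count, and the highest pregnant value was far below the lowest cyclic value. RDH10, which makes retinaldehyde for the synthesis of retinoic acid, had 165, 108 and 243 CPM in the cyclic libraries and 54.2, 16.4 and 24.5 CPM in the pregnant libraries (log2 FC −2.47, SE 0.52, quasi-likelihood FDR 0.132), and its call was lost without gilt 02, 13, 05 or 14 (log2 FC −2.50 to −2.13). Of 15 retinoid genes listed, these 2 were called and both were lower, 0 were higher, and the median log2 FC of the list was 0.62 against 0.08 for all genes. The sign of this median turned without gilt 01, to −0.16, with 6 of the 15 genes above 0 instead of 10.

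In prostaglandin handling the enzyme of inactivation and the transporter moved in opposite directions. HPGD (gene ID 100156186, chromosome 14, 15718261 to 15773534), which oxidizes and so inactivates prostaglandins, had 654, 382 and 735 CPM in the cyclic libraries and 89, 44.5 and 28.2 CPM in the pregnant libraries (log2 FC −3.47, SE 0.51, quasi-likelihood FDR 0.0639). All pregnant libraries were below all cyclic ones, and the p value without any one gilt stayed below the cut-off. SLCO2A1, which takes prostaglandins up into the cell, had 10.2, 9.06 and 11.7 CPM in the cyclic libraries and 75.3, 55.6 and 27.3 CPM in the pregnant libraries (log2 FC 2.34, SE 0.42, quasi-likelihood FDR 0.105), and its call was lost without gilt 02, 04, 13 or 05 (log2 FC 2.25 to 2.44). With all libraries these were the only 2 genes called among 14 listed for prostaglandin synthesis, transport and reception, and the list had a median log2 FC of −0.66. A further 7 had p values below 0.05, 3 of them above and 4 below 0 in log2 FC (6.51% of all genes were higher and 5.96% lower at that level).

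Among cell adhesion genes, CDH17 and CHL1 were called lower. CDH17 (gene ID 100157834, chromosome 4, 42508852 to 42597888), a cadherin of epithelia, had 99.2, 78.3 and 128 CPM in the cyclic libraries and 0.809, 2.68 and 1.53 CPM in the pregnant libraries (log2 FC −5.78, SE 0.44, quasi-likelihood FDR 0.022), the lowest FDR reached in S together with LOC110255187. CHL1, an adhesion molecule of the L1 family, had 28.7, 25.7 and 28.6 CPM in the cyclic libraries and 4.85, 0.335 and 0.919 CPM in the pregnant libraries (log2 FC −4.09, SE 0.77, quasi-likelihood FDR 0.116), and 11.6% of its exonic bases also lie in a gene model on the other strand, with the use of strand in counting not stated. Its call was lost without gilt 02, 04, 13, 05 or 14 (log2 FC −4.12 to −3.51). Among 15 listed junction and cadherin genes, 0 were called higher and these 2 lower, and the median log2 FC was 0.21, or −0.29 without gilt 05. Calls for higher expression appeared in this list without gilt 01 (ALCAM and CLDN1, beside CDH17 and CHL1 lower), without gilt 14 (GJA1, beside CDH17 lower) and in the DESeq2 Wald test with all libraries (ALCAM and CLDN1, beside CDH17, CHL1 and CLDN8 lower). KRT7, a keratin of simple epithelia, was the only called gene of the 14 epithelial markers, with 182, 90.6 and 203 CPM in the cyclic libraries and 9.71, 34.2 and 8.88 CPM in the pregnant libraries (log2 FC −3.14, SE 0.61, quasi-likelihood FDR 0.122, lost without gilt 02, 13, 01 or 14 (log2 FC −3.03 to −2.79)). KRT8 was at 783, 769 and 921 CPM in cyclic and 211, 378 and 358 CPM in pregnant S (log2 FC −1.38, SE 0.31, quasi-likelihood FDR 0.149), and EPCAM at 378, 288 and 357 CPM in cyclic and 201, 680.4 and 448 CPM in pregnant S (log2 FC 0.38, SE 0.44, quasi-likelihood FDR 0.805), so that the markers of epithelium did not move as one. Of the 14, 10 had log2 FC below 0 and 4 above. Their median was −0.34, from −0.63 without gilt 05 to −0.16 without gilt 01. In 4 the pregnant libraries lay below the cyclic libraries without overlap (9.38% of all genes), and in 0 above them. At p values below 0.05, 3 were lower (5.96% of all genes) and 0 higher.

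Some metabolic enzymes, transporters and ion channels were called lower as well. PSAT1, an enzyme of serine synthesis, had 428, 633 and 775 CPM in the cyclic libraries and 37.2, 70.7 and 63.1 CPM in the pregnant libraries (log2 FC −3.42, SE 0.38, quasi-likelihood FDR 0.0297). BCAT1, which transfers the amino group of branched-chain amino acids, had 4039, 2537 and 3212 CPM in the cyclic libraries and 365, 927 and 404 CPM in the pregnant libraries (log2 FC −2.53, SE 0.49, quasi-likelihood FDR 0.122). By its mean over the 6 libraries this was the most abundant DE gene, and its call was lost without gilt 02, 04, 13, 01 or 14 (log2 FC −2.68 to −2.32). NOS1, the neuronal nitric oxide synthase, followed with 3556, 885 and 2581 CPM in the cyclic libraries and 299, 114 and 233 CPM in the pregnant libraries (log2 FC −3.44, SE 0.64, quasi-likelihood FDR 0.114), lost without gilt 02, 13, 05 or 14 (log2 FC −3.51 to −3.01). NBEAL1, also among the 10 most abundant DE genes, had 2434, 962 and 1389 CPM in the cyclic libraries and 321, 437 and 431 CPM in the pregnant libraries (log2 FC −2.01, SE 0.42, quasi-likelihood FDR 0.132), lost without gilt 02, 13, 01, 05 or 14 (log2 FC −2.10 to −1.57). TRANK1, another of them, had 678, 429.8 and 552 CPM in the cyclic libraries and 221, 232 and 173 CPM in the pregnant libraries (log2 FC −1.41, SE 0.28, quasi-likelihood FDR 0.127), lost without gilt 02, 13, 01, 05 or 14 (log2 FC −1.49 to −1.24). HDC, which makes histamine, had 67.3, 102 and 68.1 CPM in the cyclic libraries and 8.09, 7.03 and 11 CPM in the pregnant libraries (log2 FC −3.16, SE 0.33, quasi-likelihood FDR 0.0297). All pregnant libraries were far below all cyclic ones. The amino acid transporters SLC6A9 and SLC6A15 had 109, 59 and 66.6 and 175, 162 and 184 CPM in cyclic S and 5.66, 3.01 and 5.21 and 4.05, 17.7 and 11.6 CPM in pregnant S (log2 FC −4.10 and −3.90, quasi-likelihood FDR 0.0296 and 0.0343). SLC28A3, a nucleoside transporter, had 977, 388 and 693 CPM in the cyclic libraries and 121, 228 and 119 CPM in the pregnant libraries (log2 FC −2.14, SE 0.45, quasi-likelihood FDR 0.132), lost without gilt 02, 13, 01 or 14 (log2 FC −2.13 to −1.79). Of the ion channel genes, KCNMB4, a subunit of calcium-activated potassium channels, had 146, 91.5 and 122 CPM in the cyclic libraries and 2.43, 1.0 and 8.88 CPM in the pregnant libraries (log2 FC −4.77, SE 0.69, quasi-likelihood FDR 0.0639), and KCNJ5, an inward rectifier, had 66.1, 70.7 and 50.5 CPM in the cyclic libraries and 8.9, 12.1 and 8.88 CPM in the pregnant libraries (log2 FC −2.64, SE 0.29, quasi-likelihood FDR 0.0297). FXYD4, a regulator of the sodium pump, had 32.3, 26.9 and 33.3 CPM in cyclic S and at most 3 counts in each pregnant library, a ratio of 38.0 (95% counting interval 17.2 to 105; quasi-likelihood FDR 0.0297).

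Further decreases at an FDR below 5%, singled out after their values were seen, belonged to various functions. RNF144B, a ubiquitin ligase, had 654, 557 and 571 CPM in the cyclic libraries and 82.5, 126 and 120.1 CPM in the pregnant libraries (log2 FC −2.44, SE 0.28, quasi-likelihood FDR 0.0309). The beta-defensin DEFB1, an antimicrobial peptide, had 60.2, 69.8 and 95.2 CPM in the cyclic libraries and 0.809, 4.35 and 6.43 CPM in the pregnant libraries (log2 FC −4.13, SE 0.54, quasi-likelihood FDR 0.0454). ALG10, which completes the sugar chain for N-glycosylation, had 254, 173 and 232 CPM in the cyclic libraries and 48.5, 66.6 and 56.4 CPM in the pregnant libraries (log2 FC −1.94, SE 0.26, quasi-likelihood FDR 0.0474). The Ca2+-dependent kinase CAMK1D had similar levels within each group, 233, 219 and 225 CPM in the cyclic libraries and 79.3, 72.7 and 78.7 CPM in the pregnant libraries (log2 FC −1.55, SE 0.21, quasi-likelihood FDR 0.0474). KCTD1, ZNF608, EVL, GARNL3, FSTL4, PECR, LZTS3, C10H9orf72 and the sialic acid-binding lectin LOC100513863 had log2 FC from −4.09 (GARNL3) to −1.95 (EVL) and quasi-likelihood FDR values from 0.0296 (KCTD1) to 0.0474 (LZTS3). At one place on chromosome 3 an lncRNA, LOC110255187 (64779256 to 64789832), and a lithostathine-like gene, LOC100520832 (64792665 to 64795666), lie next to each other. The lncRNA had 123, 114 and 87.5 CPM in the cyclic libraries and 1.62, 0.67 and 2.76 CPM in the pregnant libraries (log2 FC −5.94, SE 0.48, quasi-likelihood FDR 0.022). The lithostathine-like gene had 63, 63.1 and 68.1 CPM in the cyclic libraries and 4.85, 0.67 and 1.84 CPM in the pregnant libraries (log2 FC −4.93, SE 0.57, quasi-likelihood FDR 0.0323). Neither shares exonic bases with another gene model. LOC100738087, annotated as a neuron-specific protein family member, had 67.3, 35.1 and 68.5 CPM in the cyclic libraries and 0.809, 2.68 and 0.919 CPM in the pregnant libraries (log2 FC −5.14, SE 0.55, quasi-likelihood FDR 0.0297). The other genes among the 15 largest decreases, COCH, PNPLA3, PAK6, LOC100525112 (a CYP2J2-like gene) and NXNL2, had quasi-likelihood FDR values of 0.0579 to 0.116.

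**Figure D2:**
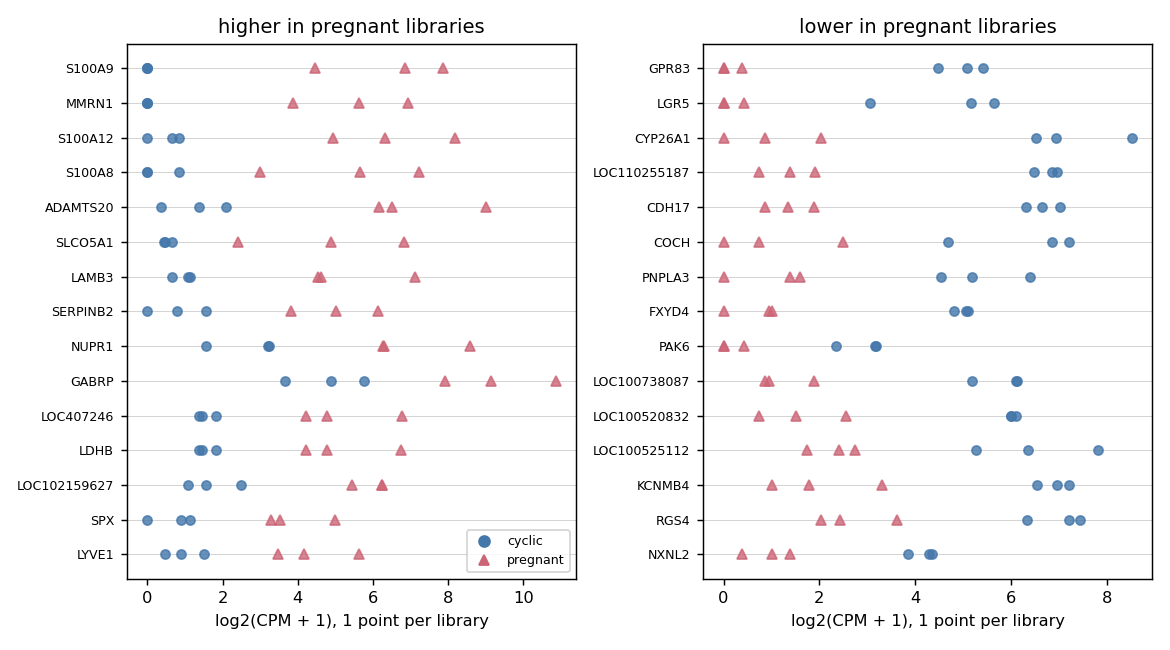
Levels in S of 30 DE genes, the 15 leading increases and the 15 leading decreases, as log2(CPM + 1) on a linear axis, with 1 point per library. Cyclic (circles) and pregnant libraries (triangles) are separated for each gene, and the spread among pregnant libraries is wider for the increases, for example 20.8 to 232 CPM for S100A9, than for many of the decreases.

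Among the increases the calgranulins, calcium-binding proteins of the S100 family released in inflammation, had the largest differences. S100A9 (gene ID 100127489, chromosome 4, 96236114 to 96238989) had 0, 0 and 0 CPM in the cyclic libraries and 115, 232 and 20.8 CPM in the pregnant libraries. With no count in cyclic S it was at least 116-fold higher, set against 3 counts in each cyclic library (quasi-likelihood FDR 0.114). S100A12 was at 0.787, 0.584 and 0 CPM in cyclic and 78.5, 290.3 and 29.4 CPM in pregnant S, a ratio of 308 (95% counting interval 120 to 1132; quasi-likelihood FDR 0.0683). S100A8 was at 0.787, 0 and 0 CPM in cyclic and 49.4, 149 and 7.05 CPM in pregnant S, a ratio of 307 (95% counting interval 84.4 to 2538; quasi-likelihood FDR 0.12). For each of them gilt 05 was the highest and gilt 14 the lowest pregnant library. The call of S100A12 was kept whichever gilt was left out, that of S100A9 was lost without gilt 02, 04 or 01, and that of S100A8 without gilt 02, 04, 13, 01 or 05. SERPINB2, an inhibitor of plasminogen activators, had 1.97, 0 and 0.732 CPM in the cyclic libraries and 31.6, 69.3 and 13.2 CPM in the pregnant libraries (log2 FC 5.43, SE 1.02, quasi-likelihood FDR 0.116), lost without gilt 04, 13 or 05 (log2 FC 4.64 to 5.34). Of 9 calgranulins, clade B serpins and related genes listed, these 4 were called higher and 0 lower, with a median log2 FC of 5.43 (at least 4.64 with any 1 gilt left out). Without gilt 04, S100A12 was the only call of the list. Neutrophil markers, which accompany calgranulins in blood, were not listed, and the part of other cells in these levels was not tested.

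Genes of lymphatic vessels were the only marker list with calls for higher expression in the quasi-likelihood test of all libraries. MMRN1 (gene ID 100516922, chromosome 8, 129113951 to 129173413), a secreted protein of endothelium, had 0, 0 and 0 CPM in the cyclic libraries and 121, 48.2 and 13.8 CPM in the pregnant libraries, at least 58.1-fold more against 3 counts in each cyclic library (quasi-likelihood FDR 0.116). LYVE1, the hyaluronan receptor of lymphatic endothelium, had 0.394, 0.877 and 1.83 CPM in the cyclic libraries and 48.5, 17.1 and 10.1 CPM in the pregnant libraries (log2 FC 4.51, SE 0.82, quasi-likelihood FDR 0.109). PROX1, the transcription factor of lymphatic identity, did not pass the cut-off, with 0, 0.292 and 0 CPM in cyclic and 50.2, 13.7 and 2.14 CPM in pregnant S (quasi-likelihood FDR 0.14), and 8.27% of its exonic bases lie in a gene model on the other strand. RELN had 7.87, 2.05 and 3.29 CPM in cyclic and 76.9, 22.8 and 5.21 CPM in pregnant S (log2 FC 2.96, SE 0.99, quasi-likelihood FDR 0.296) and FLT4 7.48, 3.8 and 5.86 CPM in cyclic and 31.6, 11 and 1.53 CPM in pregnant S (log2 FC 1.30, SE 0.93, quasi-likelihood FDR 0.635). Gilt 01 was the highest and gilt 14 the lowest pregnant library for all 5 listed markers. The call of MMRN1 was lost without gilt 02, 04, 13 or 05, and that of LYVE1 without gilt 02 or 04 (log2 FC 4.17 to 4.39). Without gilt 01, MMRN1 and LYVE1 were called and the median log2 FC of the list was 3.63, from 4.51 with all libraries (4.39 with genes at or below 3 counts set to their bound). The 8 blood endothelial markers had 0 calls and a median log2 FC of 1.31, and of −0.11 without gilt 01. PECAM1 had 26.8, 31 and 32.9 CPM in cyclic and 265, 62.3 and 54.5 CPM in pregnant S (log2 FC 2.06, SE 0.63, quasi-likelihood FDR 0.262).

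Other large increases concerned proteins of the extracellular space. SPP1 (gene ID 397087, chromosome 8, 131077786 to 131085334), osteopontin, a ligand of integrins, had 3.15, 5.55 and 5.49 CPM in the cyclic libraries and 44.5, 51.2 and 36.1 CPM in the pregnant libraries (log2 FC 3.19, SE 0.35, quasi-likelihood FDR 0.0297). The 3 pregnant libraries were within 36.1 to 51.2 CPM, and gilt 01 did not stand out. TIMP1 (gene ID 396862, chromosome X, 42103251 to 42106289), an inhibitor of matrix metalloproteases, had 10.6, 13.7 and 13.5 CPM in the cyclic libraries and 124, 59.9 and 66.8 CPM in the pregnant libraries (log2 FC 2.71, SE 0.36, quasi-likelihood FDR 0.0474), and without gilt 01 the log2 FC was 2.29. ADAMTS20, a metalloprotease that cleaves proteoglycans, had 1.57, 0.292 and 3.29 CPM in the cyclic libraries and 70.4, 509.6 and 89.5 CPM in the pregnant libraries (log2 FC 7.04, SE 1.14, quasi-likelihood FDR 0.082), with gilt 05 far above the others, and its call was lost without gilt 02 (log2 FC 7.0). LAMB3, a laminin chain of basement membranes under epithelia, was at 1.18, 0.584 and 1.1 CPM in cyclic and 23.5, 137 and 22.4 CPM in pregnant S, a ratio of 74.2 (95% counting interval 37.4 to 173; quasi-likelihood FDR 0.082), lost without gilt 02, 04 or 13. The neuropeptide gene SPX was at 1.18, 0.877 and 0 CPM in cyclic and 10.5, 8.71 and 30.6 CPM in pregnant S, a ratio of 26.9 (95% counting interval 12.1 to 74.6; quasi-likelihood FDR 0.127), lost without gilt 02, 04, 13 or 14. The lncRNA LOC102159627 (chromosome 9, 20378201 to 20393092), also at an FDR below 5%, had 1.97, 4.68 and 1.1 CPM in the cyclic libraries and 42.9, 75.3 and 74.7 CPM in the pregnant libraries (log2 FC 4.58, SE 0.55, quasi-likelihood FDR 0.0343).

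Inside the cell, NUPR1, a nuclear protein induced by stress, had 1.97, 8.18 and 8.42 CPM in the cyclic libraries and 76.1, 384 and 77.5 CPM in the pregnant libraries (log2 FC 4.83, SE 0.88, quasi-likelihood FDR 0.108), lost without gilt 02, 04 or 13 (log2 FC 4.43 to 5.10). GABRP, a subunit of GABA-A receptors, was the most abundant of the large increases, with 28.7, 53.8 and 11.7 CPM in the cyclic libraries and 566, 1862 and 242 CPM in the pregnant libraries (log2 FC 4.82, SE 0.93, quasi-likelihood FDR 0.122), lost without gilt 02, 04 or 13 (log2 FC 4.43 to 5.46). SLCO5A1, a transporter-like protein, was at 0.394, 0.584 and 0.366 CPM in cyclic and 28.3, 113 and 4.29 CPM in pregnant S, a ratio of 112 (95% counting interval 43.3 to 412; quasi-likelihood FDR 0.13), lost without gilt 02, 04, 13, 01 or 05. RRBP1, which ties ribosomes to the endoplasmic reticulum (ER), had 194, 141 and 195 CPM in the cyclic libraries and 499, 614 and 343 CPM in the pregnant libraries (log2 FC 1.46, SE 0.31, quasi-likelihood FDR 0.134), lost without gilt 02, 04, 13, 01 or 05 (log2 FC 1.25 to 1.54). LOC407246 and LDHB, both annotated as lactate dehydrogenase B, share 99.8% and 100% of their exonic bases and had nearly the same counts, so that they stand for a single locus. LDHB had 1.57, 1.75 and 2.56 CPM in the cyclic libraries and 26.7, 17.7 and 107 CPM in the pregnant libraries (log2 FC 4.67, SE 0.81, quasi-likelihood FDR 0.0995), with gilt 14 the highest, and the call was lost without gilt 02, 04 or 13 (log2 FC 4.55 to 4.89).

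None of the listed enzymes of cholesterol synthesis was called, and all had fitted log2 FC below 0. Cells make sterols from acetyl-CoA in a chain of enzymes whose genes are switched on together by SREBF2 when sterol in the ER membrane is low, and INSIG1 and INSIG2 hold SREBF2 back when it is high. All 19 listed enzymes had log2 FC below 0, against 43.5% of all genes, and 15 had p values below 0.05 (5.96% of all genes were lower at that level). Without gilt 01 this number was 9, without gilt 14 it was 10 and without gilt 13 it was 8, and with counts thinned to the smallest library 18 of the 19 had log2 FC below 0. In 16 of the 19 the pregnant libraries lay below the cyclic libraries without overlap (9.38% of all genes), and the median log2 FC was −1.21, or −1.22 without gilt 01 and −1.13 without gilt 14. With none past the cut-off of the quasi-likelihood test, the DESeq2 Wald test called 7 of them, against 512 (4.44%) of all genes at that cut-off. Near the start of the pathway HMGCS1, which makes HMG-CoA, had 503, 607 and 581 CPM in the cyclic libraries and 118, 341 and 123 CPM in the pregnant libraries (log2 FC −1.54, SE 0.46, quasi-likelihood FDR 0.251). SQLE, which oxidizes squalene, had 223, 205 and 218 CPM in the cyclic libraries and 44.5, 109 and 33.7 CPM in the pregnant libraries (log2 FC −1.78, SE 0.45, quasi-likelihood FDR 0.189). FDFT1, which makes squalene, had 594, 474 and 639.5 CPM in the cyclic libraries and 75.3, 252 and 107 CPM in the pregnant libraries (log2 FC −1.97, SE 0.47, quasi-likelihood FDR 0.17). Gilt 05 was the highest pregnant library for HMGCS1, SQLE and FDFT1, and in each of them it stayed below the lowest cyclic library.

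Of 12 listed genes of sterol sensing, uptake and export, only the cholesterol exporter ABCG1 was called, and it was higher, with 52.4, 70.1 and 61.1 CPM in the cyclic libraries and 140.0, 215 and 161 CPM in the pregnant libraries (log2 FC 1.49, SE 0.26, quasi-likelihood FDR 0.0995), lost without gilt 02, 04 or 13 (log2 FC 1.39 to 1.60). INSIG2 had 157, 108 and 131 CPM in cyclic and 42.1, 71 and 46.9 CPM in pregnant S (log2 FC −1.30, SE 0.29, quasi-likelihood FDR 0.142), INSIG1 78, 89.1 and 75.4 CPM in cyclic and 28.3, 64.6 and 5.51 CPM in pregnant S (log2 FC −1.30, SE 0.72, quasi-likelihood FDR 0.518) and SREBF2 249, 242 and 282 CPM in cyclic and 116, 198 and 118 CPM in pregnant S (log2 FC −0.84, SE 0.28, quasi-likelihood FDR 0.303). The list had a median log2 FC of −0.59, which ranged from −0.88 without gilt 05 to −0.42 without gilt 14.

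The promoters of these genes were searched for the sterol regulatory element, the site at which SREBF proteins bind, as TCACNCCAC on either strand within 250 bases before the annotated gene start. It was found in 3 of 31 sterol genes and in 88 of 11528 promoters of listed genes (0.763%). The 3 windows are shown because they belong to 2 enzymes and the regulator of the same pathway, with 25 bases on either side of the motif, which is in capitals. All 3 genes lie on the minus strand, and the sequences are read 5′ to 3′ along it (Sscrofa11.1).
HMGCS1, chr16:27957409-27957467: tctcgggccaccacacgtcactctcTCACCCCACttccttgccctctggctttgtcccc
SQLE, chr4:14700296-14700354: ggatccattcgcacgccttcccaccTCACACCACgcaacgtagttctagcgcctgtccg
SREBF2, chr5:6784784-6784842: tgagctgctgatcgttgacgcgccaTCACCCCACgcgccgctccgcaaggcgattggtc
The last base of the motif lay 173, 169 and 85 bases before the annotated start of HMGCS1, SQLE and SREBF2. A match of letters is not a measured binding site, and the 17 listed enzymes without a match had log2 FC below 0 as well.

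**Figure D3:**
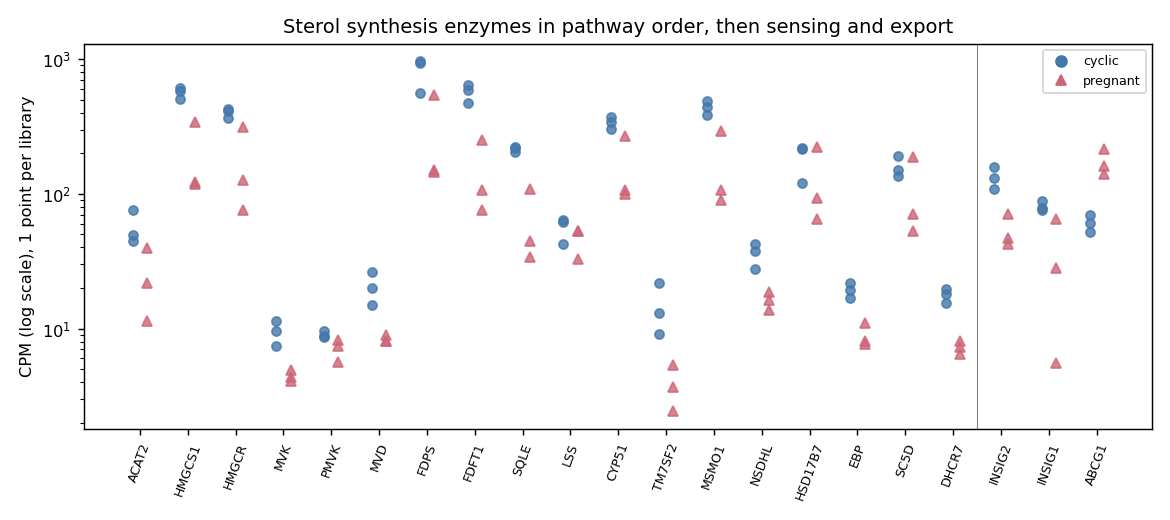
CPM on a log scale of 18 of the listed enzymes of cholesterol synthesis in pathway order, followed by INSIG2, INSIG1 and ABCG1, with 1 point per S library. Pregnant libraries (triangles) lie below cyclic libraries (circles) for 15 of these 18 enzymes and above them for ABCG1.

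Genes of the matrix and of fibroblasts had higher fitted values in pregnant S, and their medians were smaller without gilt 01. Of 28 listed collagens and matrix glycoproteins, 27 had log2 FC above 0, with a median of 1.85, and 15 had p values below 0.05 (6.51% of all genes were higher at that level). In 12 of the 28 the pregnant libraries lay above the cyclic libraries without overlap (8.18% of all genes). Without gilt 01 the median was 0.48, 21 had log2 FC above 0 and 6 had p values below 0.05. Without a cyclic gilt the median was 1.74 to 1.93, while 5 to 7 had p values below 0.05. SPP1 was the only called gene of this list, with and without gilt 01. COL1A1 had 1183, 2038 and 2111 CPM in cyclic and 21643, 1999.7 and 3743 CPM in pregnant S (log2 FC 2.36, SE 0.92, quasi-likelihood FDR 0.363). COL3A1 had 1778, 3487 and 2994 CPM in cyclic and 22136, 2891 and 4393 CPM in pregnant S (log2 FC 1.83, SE 0.84, quasi-likelihood FDR 0.435). DCN, the proteoglycan decorin, had 224, 457 and 521 CPM in cyclic and 2124, 571 and 669 CPM in pregnant S (log2 FC 1.48, SE 0.60, quasi-likelihood FDR 0.376). In each of these 3 genes gilt 01 was several times above the other libraries. TNC, tenascin C, had 1.97, 3.51 and 2.2 CPM in cyclic and 302, 7.7 and 17.2 CPM in pregnant S (log2 FC 5.34, SE 1.48, quasi-likelihood FDR 0.225), and without gilt 01 its log2 FC was 2.21. All 10 fibroblast markers had log2 FC above 0, with a median of 1.58, and 7 of them without gilt 01, with a median of 0.27, and 0 were called either way. For VIM, FBLN1 and PDGFRB the sign turned when gilt 01 was left out (log2 FC −0.13, −0.17 and −0.31). The 21 listed matrix proteases and inhibitors had 2 calls for higher expression, TIMP1 and ADAMTS20, and a median log2 FC of 1.12, or 0.20 without gilt 01. Smooth muscle markers were not called, with ACTA2 at 20.9, 18.7 and 39.5 CPM in cyclic and 672, 101 and 79.3 CPM in pregnant S (log2 FC 3.42, SE 0.90, quasi-likelihood FDR 0.206).

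Growth factors and their receptors had few calls. EGF was the only called gene of 22 in the list of stromal growth factors, while PDGFC had 76.4, 43.2 and 72.8 CPM in cyclic and 25.1, 12.7 and 22.4 CPM in pregnant S (log2 FC −1.69, SE 0.37, quasi-likelihood FDR 0.14). In the list of TGF-beta, BMP and WNT genes, 29 were listed and LGR5 was lower and BMP4 higher. BMP4, a secreted growth factor of the BMP family, had 7.48, 17.2 and 10.6 CPM in the cyclic libraries and 66.3, 53.6 and 33.7 CPM in the pregnant libraries (log2 FC 2.10, SE 0.42, quasi-likelihood FDR 0.124), lost without gilt 02, 13, 01 or 05 (log2 FC 1.84 to 2.05). EDNRA, an endothelin receptor of vessel muscle, had 6.3, 18.7 and 6.22 CPM in the cyclic libraries and 42.9, 74.3 and 169 CPM in the pregnant libraries (log2 FC 3.18, SE 0.66, quasi-likelihood FDR 0.132), lost without gilt 02, 13, 05 or 14 (log2 FC 2.48 to 3.31), and was the only called gene of 20 vessel genes. PGF, placental growth factor, had 2.76, 1.75 and 0.366 CPM in cyclic and 12.9, 27.8 and 8.58 CPM in pregnant S (log2 FC 3.32, SE 0.75, quasi-likelihood FDR 0.147). The list medians of log2 FC were 0.41, 0.74 and 1.08, and −0.19, 0.05 and −0.11 without gilt 01.

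Of the immune lists, that of interferon-stimulated genes, which respond to conceptus interferons in pregnancy, had 0 calls among 27 listed genes and a median log2 FC of 0.04, which ranged from −1.17 without gilt 14, when HERC5 was called lower, to 0.41 without gilt 05. IFITM1 had 154, 195 and 239 CPM in cyclic and 94.7, 115 and 96.5 CPM in pregnant S (log2 FC −0.94, SE 0.25, quasi-likelihood FDR 0.213). OAS1 had 40.9, 148 and 53.8 CPM in cyclic and 0, 14.1 and 11 CPM in pregnant S (log2 FC −3.16, SE 0.91, quasi-likelihood FDR 0.238), and 9.15% of its exonic bases lie in another gene model. Among 14 interferon receptors and inhibitors of JAK-STAT signalling, SOCS6, a suppressor of cytokine signalling, was called lower with 274, 260.1 and 292 CPM in the cyclic libraries and 72.8, 115 and 128 CPM in the pregnant libraries (log2 FC −1.38, SE 0.28, quasi-likelihood FDR 0.124), lost without gilt 02, 04, 13 or 05 (log2 FC −1.46 to −1.34). IFNGR2, a chain of the interferon gamma receptor, was just above the cut-off, with 12.2, 15.2 and 11.7 CPM in cyclic and 51.8, 70.3 and 25.4 CPM in pregnant S (log2 FC 1.91, SE 0.41, quasi-likelihood FDR 0.139). In the list of 23 innate sensors, cytokines and chemokines, TLR4, the receptor of lipopolysaccharide, was lower, with 67.7, 38.6 and 74.7 CPM in the cyclic libraries and 15.4, 14.4 and 11.6 CPM in the pregnant libraries (log2 FC −2.13, SE 0.34, quasi-likelihood FDR 0.0807), and this call was kept without any one gilt. NFKBIA, the inhibitor of NF-kappaB, was higher, with 13, 15.8 and 13.2 CPM in the cyclic libraries and 51.8, 147 and 45.6 CPM in the pregnant libraries (log2 FC 2.54, SE 0.50, quasi-likelihood FDR 0.124), lost without gilt 02, 04 or 13 (log2 FC 2.49 to 2.64). Of these 23 genes, 20 had log2 FC above 0, with a median of 1.03 (0.74 to 1.27 with 1 gilt left out). At p values below 0.05, 8 were higher and 2 lower (6.51% and 5.96% of all genes). Leukocyte markers had 0 calls among 7 listed and a median log2 FC of 1.20, or 0.14 without gilt 01, and CD14 was at 0.787, 4.09 and 0.366 CPM in cyclic and 22.7, 24.8 and 3.98 CPM in pregnant S (log2 FC 3.18, SE 0.98, quasi-likelihood FDR 0.264).

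All 21 listed genes of protein folding in the ER had log2 FC above 0, against 56.5% of all genes, with a median of 0.74, while 0 were called and 9 had p values below 0.05 (6.51% of all genes were higher at that level). Without gilt 05 the median was 0.29, with 16 above 0 and 3 at that p value, and without gilt 13 the number at that p value was 2. Without gilt 01 the median was 0.86. PDIA3, a protein disulfide isomerase, had 569, 364 and 440.0 CPM in cyclic and 755, 1578 and 1043 CPM in pregnant S (log2 FC 1.30, SE 0.37, quasi-likelihood FDR 0.236). DNAJC3, a chaperone of the stressed ER, had 50.8, 57.9 and 54.2 CPM in cyclic and 91.4, 191 and 99.3 CPM in pregnant S (log2 FC 1.23, SE 0.33, quasi-likelihood FDR 0.213). Among 19 steroid receptors and enzymes, 0 were called, and CYP7A1, the first enzyme of bile acid synthesis, missed the cut-off narrowly with 78.3, 31.3 and 94.1 CPM in cyclic and 4.05, 13.1 and 14.4 CPM in pregnant S (log2 FC −2.63, SE 0.56, quasi-likelihood FDR 0.139). The lists of calcium, zinc and ion transport (20 listed), immediate early factors (15) and cell cycle genes (14) had 0 calls each, with medians of 0.35, 0.58 and 0.75. Without gilt 01 the medians were 0.11, 0.44 and 0.13, and ATP2B4 and SLC8A1, a calcium pump and a sodium-calcium exchanger, were called lower. Without gilt 14 the cell cycle genes MKI67 and TOP2A were called higher. The median of the immediate early factors was 0.25 without gilt 05, 0.94 without gilt 14 and 0.00874 with thinned counts.

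Nearly all called genes of S had fitted differences of the same direction in the epithelium. The cell types share gilts, so that these values are set side by side and are not independent. Levels of S, LE and GE are here scaled separately for each cell type, unlike the marker sums above. Those of LE and GE include gilts 03 and 06, which have no S library. Of 120 genes called lower in S and listed for LE, 120 had lower and 0 higher fitted expression in pregnant LE, 76 of them with a p value below 0.0021 there. Of 43 called higher and listed for LE, 41 were higher in pregnant LE, 27 below that p value. Over all genes in both tables the direction was the same in 67.0%, and 1364 of 10890 were below that p value in LE, in either direction. In GE the direction was shared by 99 of 100 lower and 45 of 46 higher genes, against 61.6% of all genes. Of these, 0 lower and 11 higher genes were below that p value in GE, compared with 77 of 11124 genes in either direction. For the genes called lower, the level in cyclic S was a median of 0.911 times that in cyclic LE (quartiles 0.802 and 1.01). In pregnant gilts it was 0.626 times (quartiles 0.392 and 0.959). These ratios had 0.5 CPM added to each mean. The genes were chosen by the same S values, which favours a lower ratio in pregnant gilts. The higher of the LE and GE means, relative to S, had a cyclic median of 1.1 for the genes called lower and 1.12 for all listed genes. CDH17 had a mean of 145 CPM in cyclic LE and 3.06 CPM in pregnant LE. For the genes called higher, the median ratio of S to LE was 0.969 in cyclic and 0.576 in pregnant gilts. Where both levels are near 0, the added 0.5 CPM draws the ratio toward 1. The higher of the LE and GE means, relative to S, had a pregnant median of 1.62 for these genes and 1.13 for all listed genes. S100A9 had a mean of 1140 CPM in pregnant LE and 167 CPM in pregnant GE, against 20.8 to 232 CPM in pregnant S. Of 47 higher genes, 4 (8.51%) were over 5-fold higher in pregnant epithelium than in pregnant S, compared with 0.378% of all genes. Of 120 lower genes, 0 were over 5-fold higher in cyclic epithelium than in cyclic S, compared with 0.827% of all genes. MMRN1, LYVE1 and PAK6 were listed for S alone. The part of epithelial RNA in the calls of S was not tested.

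**Figure D4:**
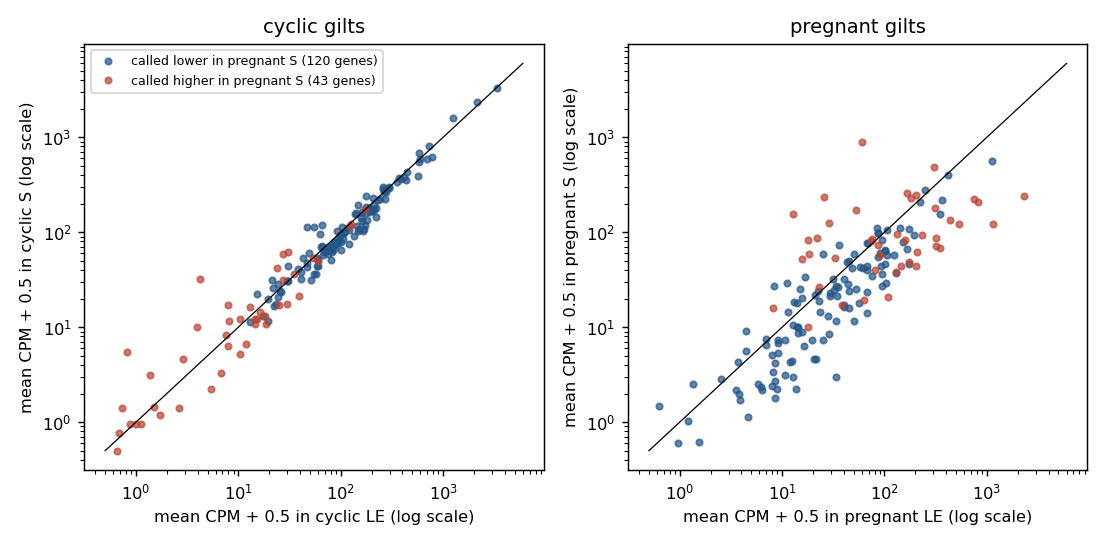
Mean CPM + 0.5 in S against that in LE on log axes for the DE genes of S that are listed for LE, in cyclic gilts (left) and pregnant gilts (right), with 120 genes called lower in blue and 43 called higher in red and a line of equal levels. In cyclic gilts most lower genes lie along the line, with a median ratio of S to LE of 0.911, and in pregnant gilts below it, with 0.626. The lower genes were chosen by low pregnant against cyclic S values, which favours their lower position on the right. CPM are scaled separately for S and LE.

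Whether pregnancy had another effect in S than in the epithelium was tested by fitting S, LE and GE together, over 10643 genes that occur in each of their tables. The difference between S and LE passed an FDR of 1% for 0 genes in the edgeR quasi-likelihood test, with 1149 at an unadjusted p value below 0.05, and that between S and GE for 0 genes, with 644. With the gilt as a block, which uses that S, LE and GE were cut from the same animals, 2 genes passed for S against LE and 0 for S against GE. These were TNIK, a kinase of WNT signalling, and LOC102166944, a metallothionein-1E-like gene. TNIK had 75.6, 59.9 and 92.2 CPM in the cyclic libraries and 68, 137 and 105 CPM in the pregnant libraries (log2 FC 0.45, SE 0.32, quasi-likelihood FDR 0.633), while its mean in LE was 86.3 CPM in cyclic and 15.3 CPM in pregnant gilts. LOC102166944 had 18.1, 90 and 52.3 CPM in the cyclic libraries and 45.3, 48.9 and 79.7 CPM in the pregnant libraries (log2 FC 0.12, SE 0.55, quasi-likelihood FDR 0.962), while its mean in LE was 57.7 CPM in cyclic and 1.17 CPM in pregnant gilts. In both genes the levels of pregnant and cyclic S overlapped.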

How the data were processed

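Following the methods of the study, the authors trimmed the single reads, aligned them (Hisat2, Sscrofa 11.1), collapsed PCR duplicates by random adapter bases, dropped genes of low CPM and deposited read counts per NCBI gene, 1 table for each cell type and without normalization. The counting tool, its strand setting and the level of the CPM filter are not given in the sources used here. The 11532 genes of the S table all matched the NCBI annotation, and totals were 1344151 to 3278733 counts.

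S was fitted in edgeR 4.0.16 (R 4.3.3) with TMM, estimateDisp and the quasi-likelihood F test (no covariate, since the groups are different gilts), with calls at p below 0.0021 and Benjamini-Hochberg FDR beside. The response of S was tested against that of LE and GE by interaction terms of 1 model over 22 libraries (FDR below 0.01). SE is the log2 FC over the root of F. CPM are after TMM within each cell type, and after TMM over the 22 libraries for the marker sums across cell types. They hold no pseudocount, apart from values added in the figures as stated. The ratios of S to LE had 0.5 CPM added, and the correlations of log2 CPM used a prior count. The procedure was tested on simulated data. Same-numbered libraries come from the same gilt. Their deviations from group means correlated with 0.253 to 0.433 between S and LE and with −0.176 to 0.685 between S and GE.

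Members and gene lists were chosen with earlier results of these data known. The genes named are the 15 largest increases and decreases among calls without overlap, the 10 most abundant calls, the called members of each list or else its lowest p values up to 2, the fibroblast, epithelial and lymphatic markers, and INSIG1, HMGCS1, SQLE and SREBF2. Some genes that this rule names are not reported here. Genes at an FDR below 5% were added after their values were seen, as were TNIK and LOC102166944. Alternatives were RLE or library size scaling, filterByExpr, at least 10 counts, the exact and likelihood ratio tests, DESeq2 1.42.0, voom weights (limma 3.58.1), robust fits, thinning to 1344151 counts, the joint fit, other cut-offs and leaving out each gilt.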

Additional observations from a re-analysis of the deposited data

Results flagged for a closer look

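TNIK responded to pregnancy differently in S and in LE in the joint fit with the gilt as a block (edgeR quasi-likelihood FDR 0.00944). In the joint fit without the block its log2 FC was larger by 2.87 in S (edgeR quasi-likelihood FDR 0.141). LOC102166944, metallothionein-1E-like, did so as well (edgeR quasi-likelihood FDR 0.00944 with the block). Its log2 FC was larger by 5.42 in S in the fit without the block (edgeR quasi-likelihood FDR 0.141). Both were lower in pregnant LE while their levels in pregnant and cyclic S overlapped.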

How the results depend on the processing

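The 170 calls became 440 with the exact test, 463 with the likelihood ratio test, 512 with the DESeq2 Wald test and 295 with the S contrast of the joint fit, 29 at an FDR below 5% and 1438 at a p value below 0.05, and ranged from 65 to 221 with 1 gilt left out. The cause was not tested, apart from the cut-offs, which change the number by their construction. The share of higher calls was 28.8%, and 39.3%, 41.3% and 40.4% in the first 3 of these tests, 52.2% at a p value below 0.05, 10.3% at an FDR below 5%, and 16.8% to 54% with 1 gilt left out. RLE or library size scaling, either filter, voom weights, robust fitting and thinning gave 122 to 198 calls. Library size scaling moved the median log2 FC of all genes from 0.08 to −0.02.

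The difference between S and LE passed an FDR of 1% for 0 genes, for 2 with the gilt as replicate block, for 0 to 1 with 1 gilt left out, and at a p value below 0.05 for 1149. For S against GE it was 0 in all fits, 644 at that p value and 1054 with the replicate block. A block within S alone was not possible because pregnant and cyclic gilts are different animals.

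Signs turned for 10 genes, none of them called. Their log2 FC with 1 gilt left out ranged from −0.13 to 1.97 for VIM, −0.17 to 2.03 for FBLN1 and −0.31 to 2.06 for PDGFRB, each lowest without pregnant gilt 01, from −0.0835 to 0.70 for EPCAM, −0.59 to 0.55 for CLDN4 and −0.66 to 0.58 for CDH1, each lowest without pregnant gilt 05, and from −1.10 to 0.14 for ELF3, −0.39 to 0.20 for ESRP1 and −0.55 to 0.65 for HBB. With voom weights it was −0.27 for CDH1 and −0.044 for FLT4. Of the other values recomputed, 1799 kept direction and side of the cut-off, 162 kept the direction but no longer passed and 103 passed newly. With 3 libraries in each group and 3 counts worth 0.877 to 2.43 CPM, small differences of low genes were beyond reach.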
